A study of Chlorocebus aethiops with 36 samples.

Results

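The 42 genes described here encode collagens, proteoglycans, elastic fibre proteins, proteases and protease inhibitors of the liver's extracellular matrix, and the receptors and cytoskeletal proteins of the stellate cells, pericytes and fibroblasts that make it. They were chosen by name, with earlier results of these data known, so their counts against all genes are not an independent test. They are 42 of the 19775 genes that had a probe set annotated to a single symbol. Each gene is represented by its probe set with the highest mean. A mean of at least 4.459 on the log2 scale, the median of all probe sets, was required for testing, which left 13634 genes in all and 39 of the 42. The other 3 were LUM (lumican, a collagen-binding proteoglycan), LRAT (which esterifies retinol for storage) and LOX (lysyl oxidase, which crosslinks collagen).

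RNA of 36 liver samples from 12 male African green monkeys (Chlorocebus aethiops) was hybridised to a human Affymetrix expression array. The control arm held 6 animals dosed with a control anti-miR and the other arm 6 animals dosed with anti-miR-33, an oligonucleotide that blocks the microRNA miR-33; both were injected subcutaneously at 5 mg/kg. Every animal gave a sample at week -5, untreated and on normal chow (called baseline here), at week 4 of dosing on chow, and at week 12, when the diet had been high in carbohydrate with moderate cholesterol for 8 weeks. The arm of a baseline sample was taken from the later labels of the same animal. The week 4 sample of control animal 1 has the diet label of week 12, against the stated feeding schedule.

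Animals are numbered within an arm. No animals were followed without injections, and the diet changed in both arms, so time, dosing and diet cannot be told apart in a change that both arms share. By the numbers in their array names, the 12 week 4 arrays form a later block than the 24 arrays of baseline and week 12. Whether these blocks were processed separately is not known from the numbers. Week 4 and any difference between the blocks cannot be told apart. The probes match human and not monkey transcripts. A level is therefore set only against levels of the same probe set, except in the filter and the check of labels. The samples were whole liver, where fewer cells of a type and less RNA per cell cannot be told apart.

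Hepatic stellate cells lie between the sinusoidal endothelium and the hepatocytes, where they store retinoids and make a thin basement membrane-like matrix. On activation, which TGF-beta and PDGF drive, they take on contractile proteins such as ACTA2 and make fibrillar collagen, the process behind liver fibrosis. Portal fibroblasts and vascular smooth muscle cells share many of these genes, and endothelium also makes basement membrane collagens, so few of the 42 belong to stellate cells alone.

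The stellate cell label was checked against the defining genes. The PDGF receptors PDGFRA and PDGFRB, desmin (DES) and decorin (DCN) lay above the filter. LRAT, a defining gene of retinoid-storing stellate cells, lay between 3.18 and 3.75 on all 36 arrays, below it. LRAT has 1 probe set, so low expression and a poor match of its probes cannot be told apart. The label of liver was borne out by 18 hepatocyte markers, whose mean on the log2 scale was 12.0 in all 3 sets of 12 arrays.

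With the arms averaged, 24 of the 39 tested genes passed as lower at each later time. Of all tested genes 20.6% did at week 4 and 16.5% at week 12. In controls alone 16 passed as lower at each, beside 11.7% and 6.66% of all genes. Under anti-miR-33 13 passed as lower at week 4 and 22 at week 12, beside 10.6% and 9.42%. The difference in change between the arms passed for 0 of the 39. By week 12 the largest falls were those of the aggrecanase ADAMTS5 (2.57-fold), the secreted peptide precursor ECRG4 (2.56-fold), the parathyroid hormone receptor PTH1R (2.25-fold), the actin-binding protein transgelin (TAGLN, 1.89-fold) and biglycan (BGN, 1.88-fold). Both PDGF receptors, collagens of types I (COL1A2 alone), III, IV, V, VI and XVIII and all 6 proteases and inhibitors on the list also fell. Dermatopontin (DPT) was the 1 gene that rose by week 12. Other probe sets of some of these genes, COL1A2, DPT and TAGLN among them, did not follow. With a measure of RNA integrity as a covariate, given below, 15 genes passed to week 12, where 5.62% of all tested genes did. Among those that no longer passed were COL3A1, COL5A1, COL6A1, COL18A1, TIMP1, MMP2, ADAMTS1 and DPT. The fall of COL3A1 was no smaller with the covariate, at -0.56 ± 0.22 (SE), but its standard error was larger. The classic marker of activated stellate cells, ACTA2, and the collagen gene COL1A1 did not pass the test at either time.

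From baseline to week 12, 25 of the 39 tested genes passed at an adjusted p under 0.05 in limma, 1 higher and 24 lower, where 27.4% of all tested genes passed, 10.9% as higher and 16.5% as lower. The median change was -0.36 on the log2 scale over the 39 genes and -0.01 over all tested genes. Of the 39, 34 lay below 0, where 52.8% of all tested genes did. At week 4 the calls numbered 26, 2 higher and 24 lower, where 35.7% of all tested genes passed, 15.1% as higher and 20.6% as lower. The median change to week 4 was -0.27, against -0.01 over all tested genes. Between week 4 and week 12, 10 of the 39 passed, all as lower, where 27.6% of all tested genes passed and 13.9% passed as lower. Counted in either direction, the share of the 39 called in that interval was thus close to the background, and counted as lower it was above it. Without control animal 5, 6 of 39 passed. Some calls were lost when 1 animal was left out: to week 4 those of COL4A1, COL5A1, COL5A2, COL18A1, TIMP1, ADAMTS1 and THY1, to week 12 those of COL5A1, DPT, FBLN5 and TIMP1, and between those times those of COL6A1, DES, MMP2, ECRG4, TGFB1 and PDGFRB. The 3 intervals share arrays, so their calls are not independent of each other.

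**Figure D1:**
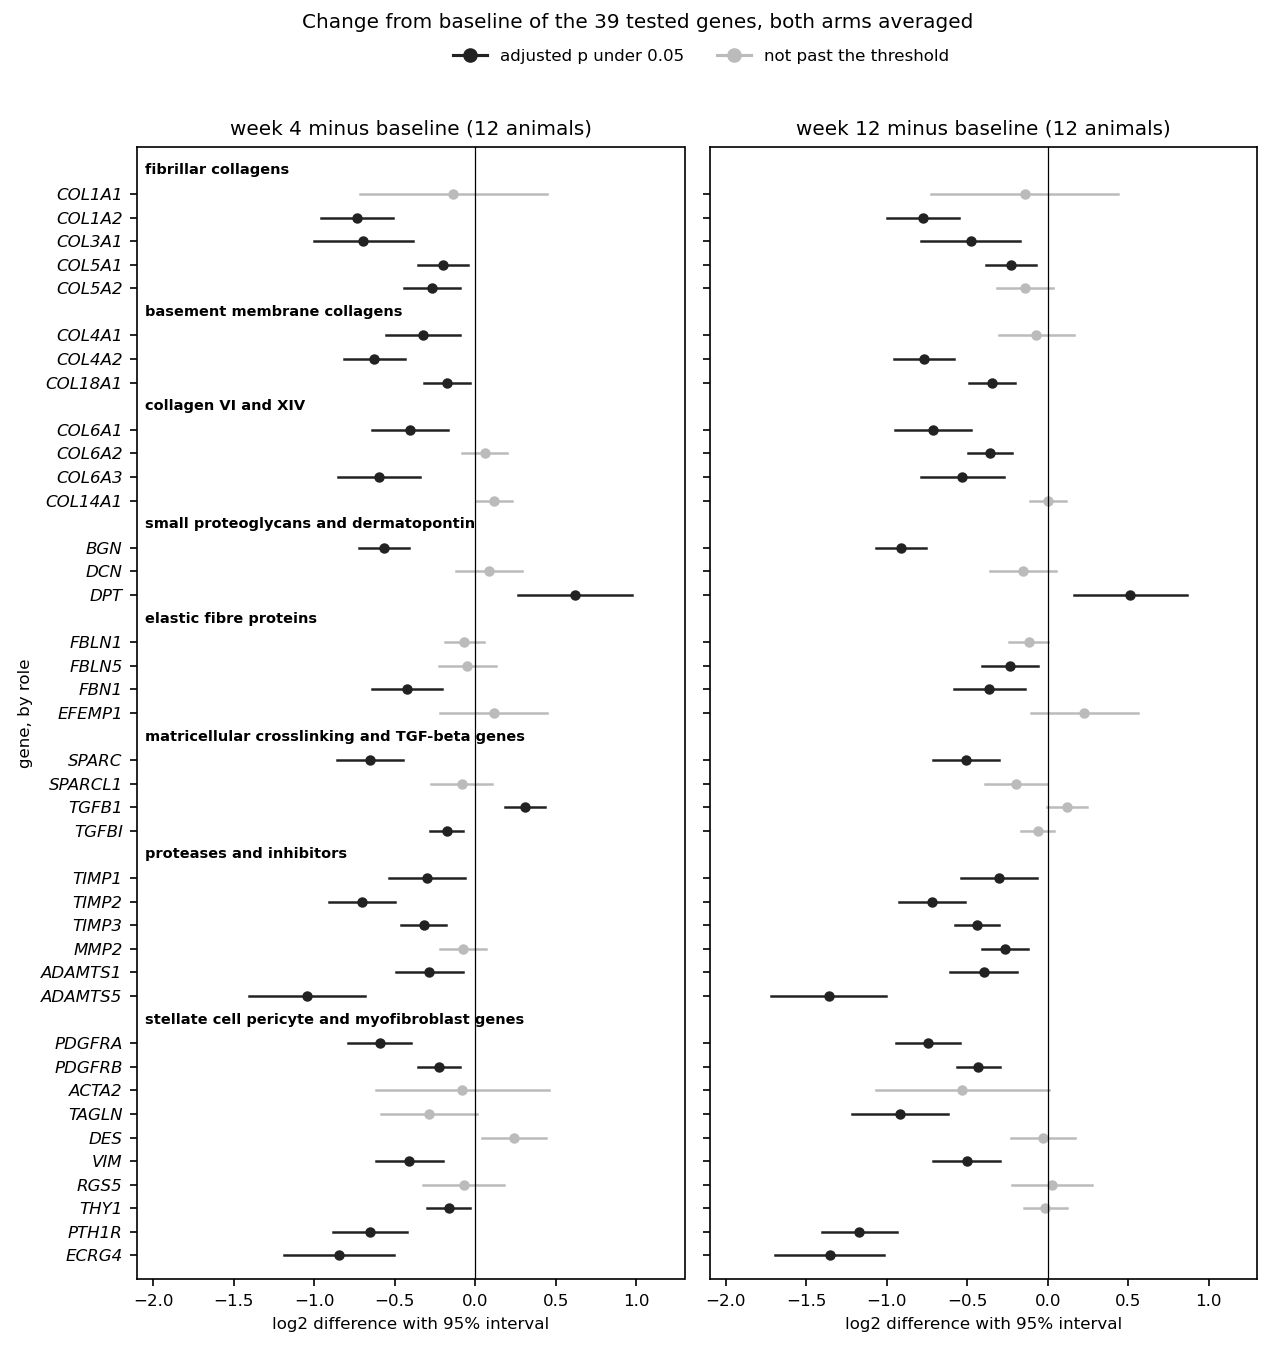
Change in log2 expression of each tested gene (mean of both arms, with its 95% interval from the limma fit) from baseline to week 4 on the left and from baseline to week 12 on the right, with genes grouped by role on the vertical axis; black points passed at an adjusted p under 0.05 and grey ones did not. Most points lie left of 0 in both panels, with DPT to the right in both and TGFB1 to the right and black at week 4.

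Fibrillar collagens give tissue its tensile strength. COL1A2, a chain of type I collagen, ran from 9.08 to 10.13 (median 9.40) over the 12 baseline arrays, from 8.33 to 9.22 (median 8.685) at week 4 and from 8.18 to 9.23 (median 8.73) at week 12. The later arrays were lower, with some overlap, and 12 of 12 animals were lower at week 12 than at baseline. Its change was -0.74 ± 0.11 (SE) to week 4 and -0.77 ± 0.11 to week 12 (adjusted p = 3.90e-06 and 2.33e-06). Its 2 other probe sets above the filter did not follow, at -0.19 and 0.04 to week 4 and at 0.02 and 0.09 to week 12.

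COL3A1, the type III chain, fell by 0.70 ± 0.15 to week 4 and by 0.48 ± 0.15 to week 12 (adjusted p = 4.55e-04 and 0.0149). On its 3 other probe sets the change to week 12 was -0.42, -0.63 and -0.26. COL5A1, a type V chain that controls fibril diameter, fell by 0.23 ± 0.08 to week 12, and its other probe sets stood at -0.25 and -0.25. Its partner chain COL5A2 passed at week 4 (-0.27 ± 0.09) and stood at -0.14 ± 0.09 at week 12. In all, 4 of 5 fibrillar collagens fell to week 4 and 3 of 5 to week 12.

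COL1A1, the other type I chain, varied widely between animals at each time. It ran from 6.59 to 10.52 at baseline (median 8.20), from 7.33 to 8.80 at week 4 (median 8.25) and from 7.06 to 9.44 at week 12 (median 8.065). These ranges overlapped almost entirely. The change to week 12 was -0.14 with a 95% interval from -0.72 to 0.43 (adjusted p = 0.760), lower in 8 animals and higher in 4. Its 3 other probe sets above the filter stood at 0.11 ± 0.06 (SE), -0.01 ± 0.23 and 0.32 ± 0.06 to week 4 and at -0.05, -0.225 and 0.12 to week 12.

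Type IV collagen is the network of basement membranes, and collagen XVIII releases endostatin. COL4A2 ran from 7.78 to 8.88 at baseline (median 8.495), from 7.45 to 8.27 at week 4 (median 7.915) and from 7.41 to 8.20 at week 12 (median 7.68). It was lower in 12 of 12 animals at each later time, by 0.63 ± 0.09 at week 4 and 0.77 ± 0.09 at week 12 (adjusted p = 3.18e-06 and 1.37e-07). The other COL4A2 probe set stood at -0.53 and -0.30. Its partner COL4A1 passed at week 4 (-0.33 ± 0.11) and stood at -0.07 ± 0.11 at week 12. COL18A1 fell by 0.18 ± 0.07 to week 4 and 0.35 ± 0.07 to week 12. The week 4 call was lost in 9 of 14 fits that left out an animal or array, with a fixed block or none, without the filter, with quantile normalization and with the mean of all probe sets. Its other probe set stood at -0.01 and -0.20. All 3 of these collagens fell to week 4 and 2 of 3 to week 12.

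Collagen VI forms beaded filaments around cells, and a fragment of its alpha-3 chain is the signalling peptide endotrophin. COL6A3 encodes that chain and ran from 7.97 to 9.32 at baseline (median 8.655), from 7.53 to 8.56 at week 4 (median 8.195) and from 7.47 to 8.58 at week 12 (median 8.285). It fell by 0.60 ± 0.13 to week 4 and 0.53 ± 0.13 to week 12 (adjusted p = 3.45e-04 and 0.00157). COL6A1 fell by 0.41 ± 0.12 and 0.71 ± 0.12 on its chosen probe set. Its 4 other probe sets stood between 0.04 and 0.31 at week 4 and at -0.39, 0.04, 0.03 and 0.14 at week 12, so the direction of COL6A1 depended on the probe set.

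COL6A2, the remaining chain measured, followed another course. It ran from 6.05 to 6.39 at baseline (median 6.20), from 5.84 to 6.57 at week 4 (median 6.32) and from 5.52 to 6.31 at week 12 (median 5.84). All 3 ranges overlapped, with the lowest median at week 12. Its change was 0.06 ± 0.07 to week 4 and -0.36 ± 0.07 to week 12, and it fell by 0.41 ± 0.07 between week 4 and week 12 (adjusted p = 3.40e-05). The other COL6A2 probe set stood at -0.80 in that interval. COL14A1, a collagen that decorates fibrils, did not pass in any interval. Of the 4 genes of collagen VI and XIV, 2 fell to week 4, 3 to week 12 and 2 between those times.

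Small proteoglycans bind collagen fibrils and hold TGF-beta in the matrix. BGN ran from 6.89 to 7.79 at baseline (median 7.37), from 6.52 to 7.18 at week 4 (median 6.82) and from 6.25 to 6.84 at week 12 (median 6.435). The baseline and week 12 ranges did not overlap, which held for BGN and PTH1R among the 39 genes and for 0.484% of all tested genes in the lower direction. BGN fell by 0.57 ± 0.08 to week 4, by 0.91 ± 0.08 to week 12 and by 0.34 ± 0.08 between them (adjusted p = 6.20e-07, 6.58e-11 and 0.00104). Its change to week 12 had the 9th smallest p of all tested genes. Of its 2 other probe sets, 1 stood at -0.37 and -0.74 from baseline, and the other, nearer the filter, at -0.15 and -0.06.

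DCN, the proteoglycan decorin, which binds and blocks TGF-beta, did not pass. It ran from 10.06 to 10.98 at baseline and from 9.76 to 10.83 at week 12, and its change was -0.16 ± 0.10. Its 3 other probe sets disagreed with each other, at 0.395, -0.56 and 0.13 to week 4 and at 0.15, -0.58 and -0.10 to week 12. With the second of these, the 1 whose name does not end in _s_at or _x_at, DCN passed as lower at both times. From week 4 to week 12 it also passed with the animal as a fixed block, with quantile normalization and with the 3′ minus 5′ covariate used for RNA integrity. LUM lay between 2.90 and 3.61 on all arrays.

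DPT, a small protein that binds decorin and speeds fibril assembly, ran from 5.87 to 7.52 at baseline (median 6.555), from 6.10 to 8.23 at week 4 (median 7.195) and from 6.43 to 7.87 at week 12 (median 6.98). The ranges overlapped widely, but 11 of 12 animals were higher at each later time than at baseline. It rose by 0.62 ± 0.17 to week 4 and by 0.51 ± 0.17 to week 12 (adjusted p = 0.00554 and 0.0248). Its 2 other probe sets did not follow, at -0.04 and -0.05 to week 4 and -0.08 and -0.15 to week 12.

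Elastic fibre proteins give tissue its recoil. FBN1, the microfibril protein fibrillin-1, which stores latent TGF-beta, fell by 0.42 ± 0.11 to week 4 and 0.36 ± 0.11 to week 12 (adjusted p = 0.00236 and 0.0101). Its other probe set, near the filter, stood at -0.20 and 0.14. FBLN5, a fibulin needed to assemble elastic fibres, stood at -0.05 ± 0.09 at week 4 and passed at week 12 (-0.23 ± 0.09, adjusted p = 0.0403). FBLN1 and EFEMP1, the latter a fibulin also called fibulin-3, did not pass, at -0.12 ± 0.06 and 0.23 ± 0.16 at week 12. Thus 1 of 4 fell to week 4 and 2 of 4 to week 12.

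SPARC binds collagen and guides its deposition. It ran from 8.26 to 9.50 at baseline (median 8.935), from 7.87 to 8.57 at week 4 (median 8.275) and from 7.94 to 8.96 at week 12 (median 8.45). All 12 animals were lower at week 12 than at baseline, and it fell by 0.65 ± 0.10 to week 4 and 0.51 ± 0.10 to week 12 (adjusted p = 6.02e-06 and 2.31e-04). Its other probe set stood at -0.21 and -0.36. The related SPARCL1 did not pass (-0.09 ± 0.09 and -0.20 ± 0.09), and LOX lay between 3.41 and 4.47 on all arrays.

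TGFB1, the ligand TGF-beta 1, which is known to induce many matrix genes, rose for a time. It ran from 4.60 to 4.96 at baseline (median 4.855), from 4.79 to 5.42 at week 4 (median 5.10) and from 4.71 to 5.15 at week 12 (median 4.94). These levels lay just above the filter, and 12 of 12 animals were higher at week 4 than at baseline. It rose by 0.31 ± 0.06 to week 4 and fell by 0.19 ± 0.06 from there to week 12 (adjusted p = 1.50e-04 and 0.0181), which left 0.12 ± 0.06 over the whole period (adjusted p = 0.151). Its other probe set, below the filter, stood at -0.24 ± 0.09 to week 4, and the week 4 call was lost with the mean of all probe sets. TGFBI, a matrix protein named for its induction by TGF-beta, passed at week 4 (-0.18 ± 0.05) and stood at -0.06 ± 0.05 at week 12.

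Proteases and their inhibitors set how fast matrix is removed. ADAMTS5, an aggrecanase that cuts proteoglycans, ran from 4.94 to 7.21 at baseline (median 5.995), from 4.19 to 5.99 at week 4 (median 5.05) and from 3.84 to 5.28 at week 12 (median 4.76). The ranges overlapped, but 12 of 12 animals were lower at week 12 than at baseline. It fell by 1.04 ± 0.18 to week 4 and 1.36 ± 0.18 to week 12 (adjusted p = 2.04e-05 and 4.54e-07). The related protease ADAMTS1 fell by 0.29 ± 0.10 and 0.40 ± 0.10.

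The metalloprotease inhibitors among the members, TIMP1, TIMP2 and TIMP3, fell together with these proteases. The inhibitors TIMP4 and RECK, which are not members, were higher at week 12 and are given below. TIMP2 ran from 8.38 to 9.30 at baseline (median 8.90), from 7.56 to 8.62 at week 4 (median 8.195) and from 7.57 to 8.65 at week 12 (median 8.145). It fell by 0.70 ± 0.10 and 0.72 ± 0.10 (adjusted p = 1.72e-06 and 1.67e-06), and its 2 other probe sets stood at -0.05 and -0.35 at week 4 and at 0.06 and -0.37 at week 12. TIMP3, the inhibitor that is bound to matrix, was lower in 12 of 12 animals at each later time, by 0.32 ± 0.07 and 0.44 ± 0.07. Of its other probe sets, 1 stood at -0.30 and -0.42 and the other at 0.01 and -0.07. TIMP1, the inhibitor raised in fibrosis, fell by 0.30 ± 0.12 and 0.30 ± 0.12 (adjusted p = 0.0415 and 0.0468). MMP2, the gelatinase of stellate cells, stood at -0.07 ± 0.07 at week 4 and passed at week 12 (-0.27 ± 0.07). In all, 5 of these 6 genes fell to week 4 and 6 of 6 to week 12.

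PDGF receptors carry the growth signal of stellate cells. PDGFRA ran from 7.66 to 8.62 at baseline (median 8.21), from 7.08 to 8.15 at week 4 (median 7.72) and from 7.01 to 7.98 at week 12 (median 7.375). All 12 animals were lower at week 12, with overlap between the groups, and it fell by 0.60 ± 0.10 and 0.74 ± 0.10 (adjusted p = 1.34e-05 and 5.78e-07). PDGFRB ran from 6.51 to 7.04 at baseline (median 6.775), from 6.16 to 6.83 at week 4 (median 6.59) and from 5.94 to 6.59 at week 12 (median 6.355). It was lower in 12 of 12 animals at week 12, and it fell by 0.22 ± 0.07 and 0.43 ± 0.07 (adjusted p = 0.00701 and 5.30e-06).

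PTH1R, a receptor for parathyroid hormone and its related peptide, ran from 7.68 to 9.00 at baseline (median 8.195), from 7.15 to 8.21 at week 4 (median 7.63) and from 6.71 to 7.41 at week 12 (median 7.20). Baseline and week 12 did not overlap. It fell by 0.65 ± 0.11 to week 4, by 1.17 ± 0.11 to week 12 and by 0.52 ± 0.11 between them (adjusted p = 3.17e-05, 2.08e-09 and 9.89e-04). ECRG4 ran from 5.94 to 7.56 at baseline (median 7.01), from 4.28 to 6.69 at week 4 (median 6.155) and from 4.33 to 6.27 at week 12 (median 5.765). It fell by 0.85 ± 0.17 and 1.36 ± 0.17 from baseline (adjusted p = 1.65e-04 and 2.04e-07), in 12 of 12 animals at week 12.

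Of the contractile genes on the list, TAGLN passed by week 12 and ACTA2 did not. TAGLN ran from 7.60 to 8.91 at baseline (median 8.18), from 7.03 to 8.78 at week 4 (median 7.81) and from 6.69 to 7.65 at week 12 (median 7.415). Its change to week 4 did not pass (-0.29 ± 0.15, adjusted p = 0.123), and the fall of 0.92 ± 0.15 to week 12 (adjusted p = 1.27e-05) was seen in 12 of 12 animals. Its 2 other probe sets stood at 0.33 ± 0.08 and 0.12 ± 0.07 at week 4 and at -0.13 and 0.04 at week 12. ACTA2, smooth muscle actin, ran from 5.42 to 8.10 at baseline and from 5.47 to 7.06 at week 12. Its change was -0.53 with a 95% interval from -1.07 to 0.01 (adjusted p = 0.140), lower in 8 animals and higher in 4.

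VIM, the intermediate filament protein of mesenchymal cells, fell by 0.41 ± 0.10 and 0.50 ± 0.10 (adjusted p = 0.00189 and 2.87e-04). DES, the muscle-type filament protein, stood at 0.24 ± 0.10 at week 4 (adjusted p = 0.0503) and fell by 0.27 ± 0.10 from there to week 12. THY1, a surface glycoprotein of fibroblasts, passed at week 4 (-0.17 ± 0.07) and stood at -0.01 ± 0.07 at week 12, with its other probe sets at -0.15 and 0.11 at week 4. RGS5, a pericyte regulator of G protein signals, did not pass. In this group 6 of 10 tested genes fell to week 4, 6 to week 12 and 5 between those times.

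**Figure D2:**
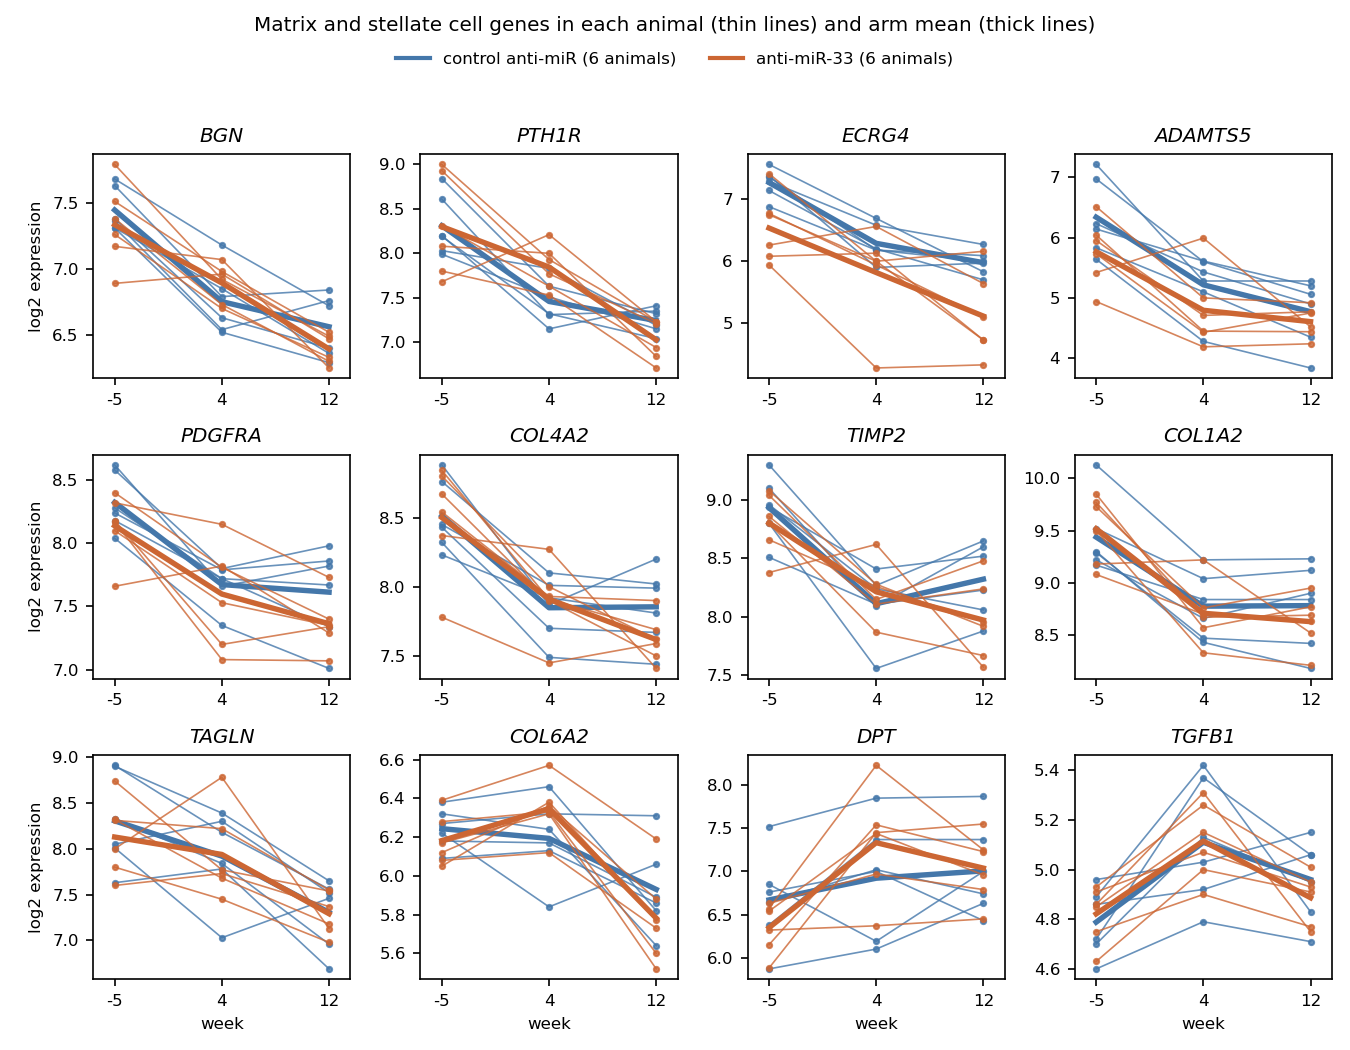
Log2 expression of 12 of the genes in each animal at baseline, week 4 and week 12; each thin line is an animal, its colour gives the arm, and thick lines are the arm means. The lines of BGN and PTH1R fall in every animal from baseline to week 12, those of TGFB1 rise in every animal to week 4, and those of DPT rise in 11 of 12.

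Of the 25 genes called from baseline to week 12, 15 had another probe set above the filter. On 5 of these (COL18A1, COL3A1, COL5A1, COL6A2 and SPARC) every other probe set had the same sign and at least 50% of the change. On 6 (COL1A2, COL6A1, DPT, FBN1, TAGLN and TIMP2) at least 1 other probe set had the opposite sign, and on the remaining 4 at least 1 had the same sign with under 50% of the change. At week 4 the same split was 4, 5 and 6 of 15. The members without another probe set above the filter, such as PTH1R, ECRG4, ADAMTS5, PDGFRA and PDGFRB, have no such check.

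A measure of RNA integrity moved with time. The 3′ minus 5′ difference of the array's GAPDH and ACTB control probe sets, which is larger when the 5′ ends of transcripts are under-represented, stood at 2.57 ± 0.43 (SD, n = 12) before treatment, and fell to 1.94 ± 0.41 by week 4 and 1.83 ± 0.16 by week 12. These values are the mean of the GAPDH and ACTB differences, which parted at week 4. On every week 4 array GAPDH stood above ACTB, from 2.40 and 2.17 in control animal 4 to 1.92 and 1.12 in control animal 2. At baseline and week 12 neither was higher throughout. The size of the fall to week 4 thus depends on the control gene. With the mean of both as a covariate in limma, 15 of the 39 genes passed from baseline to week 12, all lower. Of all tested genes 5.62% passed, 4.72% as lower. To week 4, 16 passed, 1 higher and 15 lower, where 25.2% of all tested genes passed and 15.9% as lower. The calls to week 12 that were lost were COL3A1, COL5A1, COL6A1, COL18A1, DPT, FBLN5, FBN1, TIMP1, MMP2 and ADAMTS1. Of these, COL3A1 and FBLN5 stood further from 0 than without the covariate, at -0.56 ± 0.22 (SE) and -0.26 ± 0.12, with larger standard errors. The others moved towards 0. The calls to week 4 that were lost were COL5A1, COL5A2, COL6A1, COL18A1, DPT, FBN1, PDGFRB, TIMP1, ADAMTS1 and THY1. Among those, COL5A2 stood no nearer 0, at -0.29 ± 0.11.

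The sizes with that covariate differed by gene. To week 12 BGN stood at -0.72 ± 0.10 (SE), PTH1R at -0.90 ± 0.15, ECRG4 at -1.46 ± 0.24, ADAMTS5 at -1.18 ± 0.25, PDGFRA at -0.68 ± 0.14 and TIMP2 at -0.75 ± 0.14, with adjusted p from 1.80e-05 for BGN to 0.00289 for ADAMTS5. COL4A2 moved from -0.77 to -0.44 ± 0.11 at week 12 and from -0.63 to -0.35 ± 0.10 at week 4, and still passed (adjusted p = 0.0108 and 0.0103). PTH1R at week 4 moved from -0.65 to -0.42 ± 0.14 and PDGFRB from -0.22 to -0.14 ± 0.08, of which PTH1R passed. ACTA2 moved from -0.53 to -0.02 ± 0.36 at week 12 (adjusted p = 0.987) and from -0.08 to 0.36 ± 0.33 at week 4. DPT stood at 0.10 ± 0.23 at week 12, and COL1A1 at 0.67 ± 0.36 (adjusted p = 0.310). The measure changed least to week 12 in 3 animals, by 0.02 in anti-miR-33 animal 1, -0.05 in control animal 6 and -0.28 in control animal 4. The mean of the 39 genes changed there by -0.21, -0.12 and -0.33, and by -0.20 to -0.68 in the other 9. At week 4 anti-miR-33 animal 6 was the 1 animal in which that mean rose, by 0.26.

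**Figure D3:**
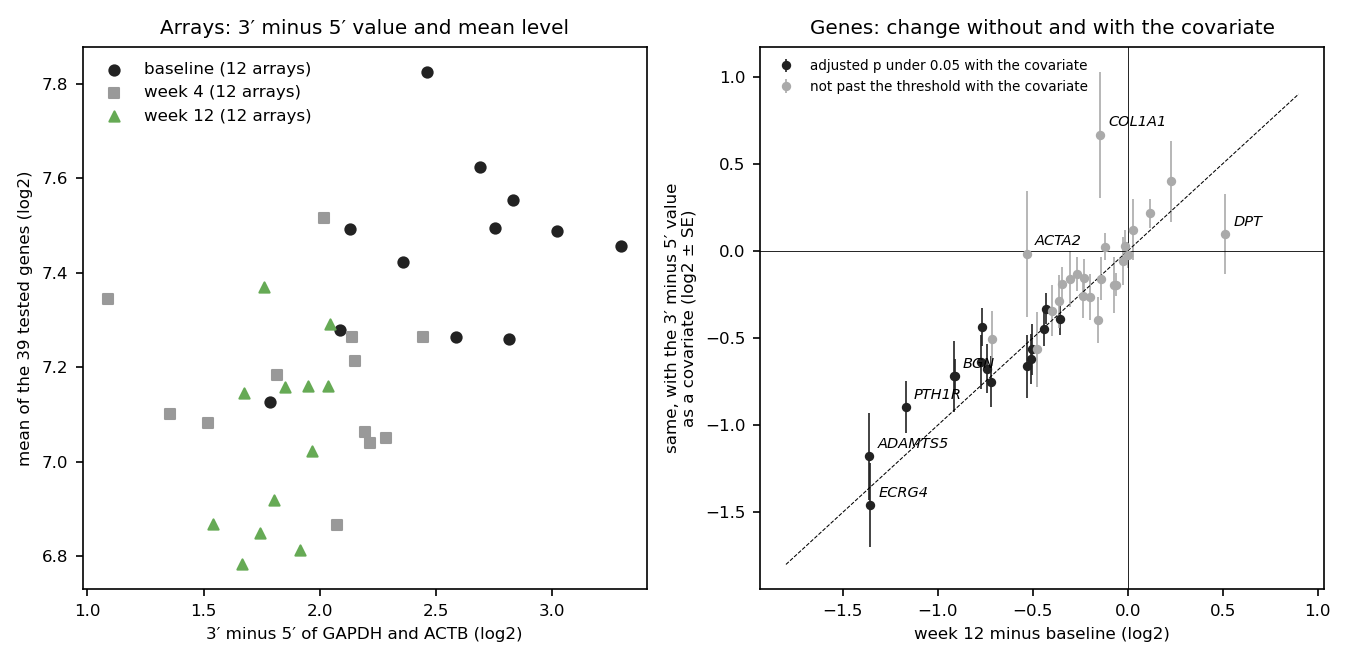
Left, mean log2 level of the 39 tested genes on each array against the 3′ minus 5′ value of GAPDH and ACTB, coloured by time; right, the change of each gene from baseline to week 12 without (horizontal) and with (vertical, ± SE) that value as a covariate. On the left most baseline arrays have higher values on both axes than most later ones, with overlap, and on the right BGN, PTH1R, ECRG4 and ADAMTS5 stay well below 0 while DPT lies near 0 with the covariate.

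Markers of other cell types were read beside these genes. Their counts, and those of the other gene lists that follow, stand against 20.6% of all tested genes called lower and 15.1% called higher at week 4, and 16.5% and 10.9% at week 12. Of 15 tested endothelial markers, 12 passed as lower at week 12 and 0 as higher, with a median of -0.72, and 12 lower and 1 higher at week 4, with a median of -0.65. Their mean fell from 6.71 (range 6.35 to 6.99 over the baseline arrays) to 6.15 at week 4 (5.89 to 6.67) and 6.04 at week 12 (5.86 to 6.32). CLEC4G, a lectin of the sinusoidal lining, fell by 1.35 ± 0.10, and STAB2, its hyaluronan scavenger receptor, by 0.86 ± 0.09, to week 12. The part of the endothelium in the change of matrix genes, several of which it also makes, was not tested.

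Of 18 hepatocyte markers, 2 were higher and 1 lower at week 12 (median 0.02), and 1 was higher at week 4. Among 10 macrophage markers, 6 were lower at week 4 (median -0.24) and 3 at week 12 (median -0.14), beside the 20.6% and 16.5% of all genes, with CD163 at -0.36 ± 0.09 and -0.33 ± 0.09. The blood list had 4 tested genes. Its erythroid genes HBB and ALAS2 fell by 1.37 ± 0.23 and 0.61 ± 0.15 to week 12, and HBB stood at 0.21 ± 0.23 at week 4. SLC4A1 and S100A9, the rest of that list, did not fall on average to week 12. Lymphocyte, cholangiocyte, portal fibroblast and mesothelial, and fat and muscle markers had medians of -0.01, 0.11, 0.03 and 0.04 at week 12, with 1, 0, 1 and 0 of them called, each lower. The part of these cells in the result was not tested.

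Other markers of quiescent stellate cells fell with the PDGF receptors. Of 14 tested, 9 passed as lower and 0 as higher at week 12 (median -0.42), and 8 as lower and 1 as higher at week 4 (median -0.295). The collectins COLEC11 and COLEC10 fell by 1.03 ± 0.08 and 0.93 ± 0.10 to week 12, reelin (RELN) by 0.91 ± 0.09 and the VIP receptor VIPR1 by 0.45 ± 0.05. Smooth muscle contractile genes passed as lower in 7 of 12 cases at week 12 (median -0.17), with tropomyosin TPM2 at -1.02 ± 0.13 and the myosin light chain MYL9 at -0.76 ± 0.09. At week 4 the contractile genes had 4 lower and 1 higher.

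Collagen chains are folded, hydroxylated and trimmed by their own set of proteins. Of 18 collagen processing genes 7 passed as lower and 0 as higher at week 12 (median -0.16), among them the collagen chaperone SERPINH1 (-0.55 ± 0.09), the procollagen enhancer PCOLCE2 (-0.41 ± 0.08) and the lysyl hydroxylase PLOD1 (-0.31 ± 0.07). Of all tested genes 16.5% were called lower at that time. At week 4, 5 were lower and 1 higher, where 20.6% of all genes were lower. Of 12 other basement membrane genes 5 were lower and 1 higher at week 12 (median -0.125), including the laminin chains LAMB2 (-0.74 ± 0.09), LAMA2 (-0.54 ± 0.10) and LAMB1 (-0.53 ± 0.11). Among 18 other matrix proteins 5 were lower and 1 higher at week 12, with the elastin interface protein EMILIN1 at -0.70 ± 0.09, the calcification inhibitor MGP at -0.60 ± 0.12 and fibronectin (FN1), which hepatocytes also secrete, at 0.34 ± 0.07.

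Signalling genes had members called in both directions. Of 22 other genes of TGF-beta signalling, 7 were lower and 1 higher at week 12 (median -0.02) and 7 lower and 2 higher at week 4 (median -0.12), beside 16.5% lower and 10.9% higher of all genes at week 12 and 20.6% and 15.1% at week 4. The co-receptors ENG and TGFBR3 fell most to week 12, by 1.19 ± 0.09 and 1.19 ± 0.11, and ENG also stands in the endothelial list; the inhibitory SMAD6 fell by 0.70 ± 0.11. Of 9 ligands and receptors of PDGF and hedgehog signalling 1 was higher at week 12 (PDGFC, 0.20 ± 0.07), near the share of all genes, and 0 lower, while at week 4 SMO and the hedgehog-binding HHIP were higher (0.22 ± 0.05 and 0.52 ± 0.12) and PDGFA lower (-0.50 ± 0.14). Among 13 other matrix proteases and regulators, 3 were higher and 0 lower at week 12, where 10.9% of all genes were higher, with the membrane-anchored inhibitor RECK at 0.27 ± 0.07, TIMP4 at 0.28 ± 0.08 and the gelatinase MMP9 at 0.39 ± 0.15.

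Comparing the arms asked whether anti-miR-33 altered these genes. Limma called 0 of the 39 genes, and 0 of all 13634 (0%), at baseline, at week 4 and at week 12. The smallest adjusted p of the 39 was 0.998 at weeks 4 and 12. At an unadjusted p under 0.05 the counts were 4 at baseline, 3 at week 4 and 5 at week 12, beside 3.89%, 4.86% and 3.04% of all tested genes. The median difference, anti-miR-33 minus control, was -0.04 before treatment, 0.02 at week 4 and -0.115 at week 12. Over all tested genes it was -0.002 at week 12. At that time 30 of the 39 genes lay below 0, where 50.3% of all tested genes did, and at baseline 23 of the 39 did. The 39 genes varied together between arrays, so such a count is not one of independent genes.

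ECRG4 had the smallest unadjusted p of the 39 at week 12. It ran from 5.70 to 6.27 in controls (median 5.985) and from 4.33 to 6.16 under anti-miR-33 (median 4.915), with overlap, a difference of -0.86 ± 0.26 (95% interval -1.39 to -0.34, adjusted p = 0.998 in limma). The arms had differed by -0.73 ± 0.26 before treatment, when the ranges were 6.88 to 7.56 and 5.94 to 7.41, and the difference in change was -0.13 ± 0.34. DCN differed by -0.44 ± 0.15 at week 12 (controls 10.32 to 10.83, anti-miR-33 9.76 to 10.72) and by -0.31 ± 0.15 at baseline. TIMP2, SPARCL1 and COL4A1 differed by -0.35 ± 0.16, -0.31 ± 0.14 and -0.36 ± 0.17 at week 12.

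At week 4 FBLN1, a fibulin of basement membranes and elastic fibres, ran from 5.15 to 5.85 in controls and from 5.51 to 5.95 under anti-miR-33, a difference of 0.26 ± 0.09. It had differed by 0.255 at baseline. RGS5 ran from 6.18 to 7.23 and from 6.92 to 7.59, a difference of 0.52 ± 0.19, and PTH1R from 7.15 to 7.83 and from 7.53 to 8.21, a difference of 0.387 ± 0.175. At baseline ADAMTS5 and TGFBI differed by -0.57 ± 0.27 and -0.20 ± 0.08. The arms overlapped for each of these genes, and none passed.

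The arms were bounded rather than shown to be alike. At week 12 the 95% interval of the arm difference, given above for ECRG4, was -0.72 to 0.39 for ADAMTS5, -0.41 to 0.07 for BGN, -0.57 to 0.14 for PTH1R, -0.55 to 0.05 for PDGFRA, -0.50 to 0.19 for COL1A2, -0.47 to 0.44 for TAGLN and, for ACTA2, which passed at no time, -0.48 to 1.17. Differences within these intervals are not excluded.

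**Figure D4:**
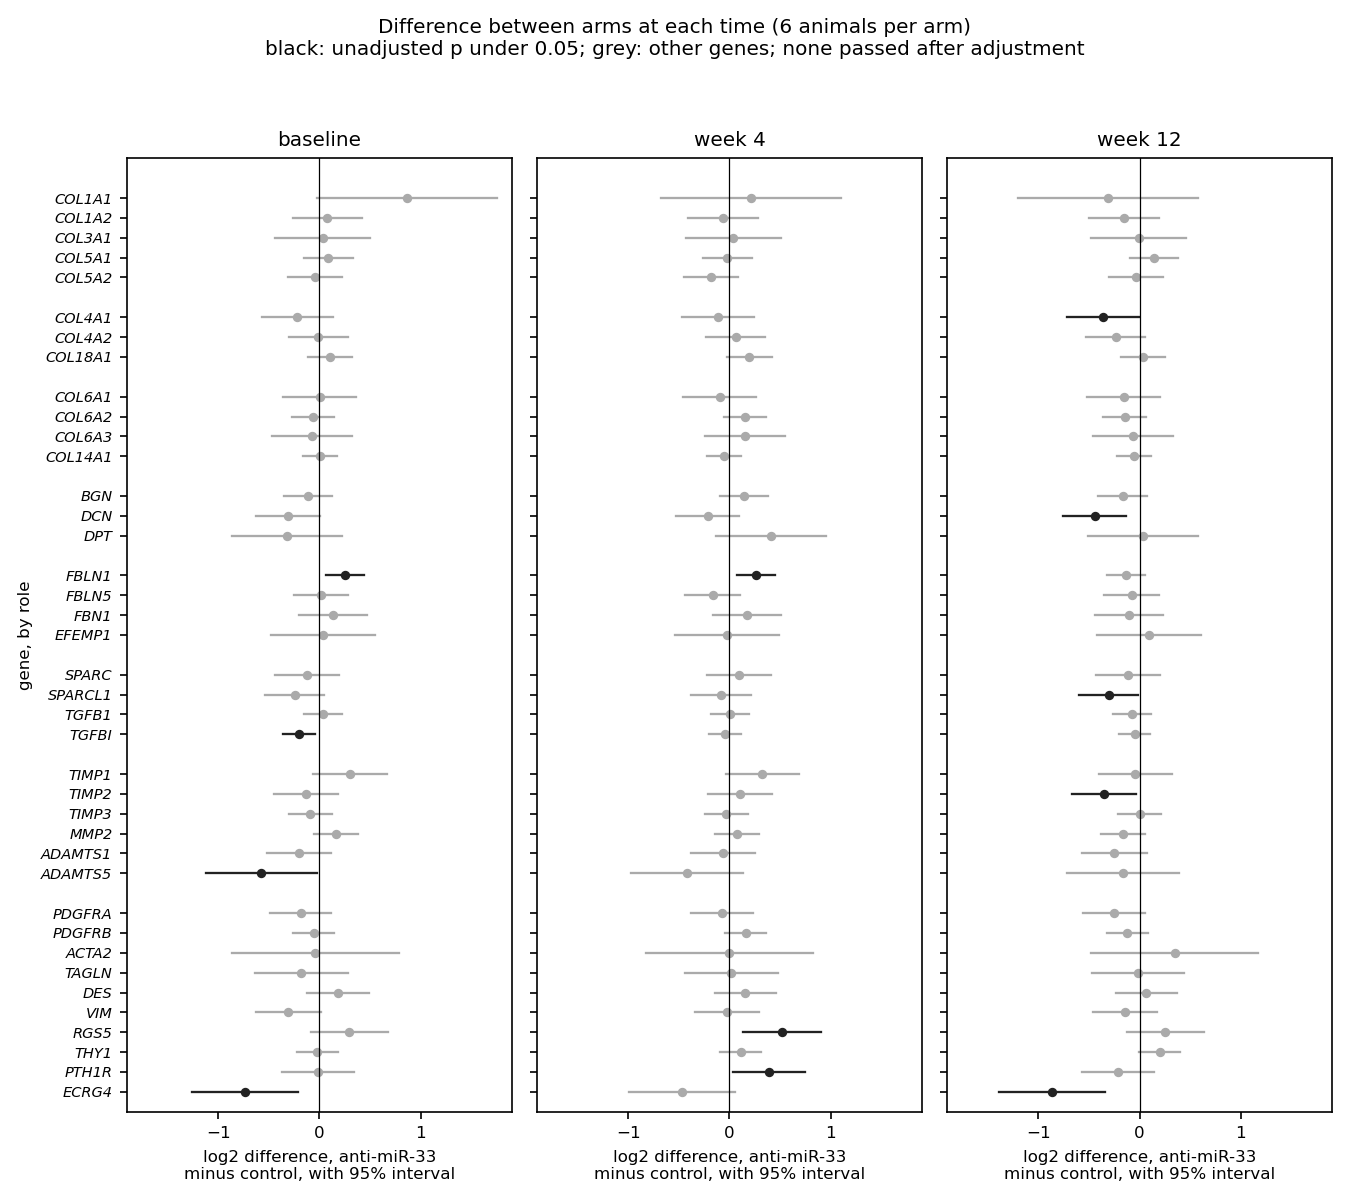
Difference between the arms (anti-miR-33 minus control, log2, with its 95% interval from limma) at baseline, week 4 and week 12 for each tested gene, grouped by role. Points lie on both sides of 0 at each time, black ones had an unadjusted p under 0.05, none passed at an adjusted p under 0.05, and ECRG4 lies lowest at all 3 times.

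The change over time was compared between arms, which removes lasting differences between animals. Limma called 0 of the 39 and 0 of all tested genes (0%) in each interval, and at an unadjusted p under 0.05 there were 1, 3 and 5 of the 39 (baseline to week 4, baseline to week 12, week 4 to week 12), beside 478, 299 and 487 of all. FBLN1 had the smallest p in the intervals that end at week 12, at -0.39 ± 0.12 from baseline and -0.40 ± 0.12 from week 4 (limma, adjusted p = 0.999 for both). In controls it was 5.55 ± 0.07 at baseline and 5.62 ± 0.14 at week 12 (SD, n = 6). Under anti-miR-33 it was 5.80 ± 0.15 and 5.49 ± 0.13, lower in 6 of 6 animals, against 1 of 6 controls. For COL1A1 the arms' changes to week 12 differed by -1.18 ± 0.57, and it was lower in 5 of 6 anti-miR-33 animals and in 3 of 6 controls. COL1A1 was already higher on average in the anti-miR-33 arm before treatment (7.16 to 10.52, controls 6.59 to 9.29). At week 12 it ran from 7.06 to 9.44 there and from 7.18 to 9.24 in controls. Part of that difference thus lay in the untreated samples. The difference in change was -0.33 ± 0.14 for MMP2 to week 12, 0.73 ± 0.35 for DPT to week 4 and -0.60 ± 0.23 for PTH1R from week 4 to week 12.

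Each arm was also read alone. In control animals 17 of the 39 genes passed to week 4, 16 of them lower, where 18.1% of all genes passed and 11.7% as lower. To week 12, 16 passed, all lower, where 9.51% of all genes passed and 6.66% as lower. Under anti-miR-33, 15 passed to week 4, 13 of them lower (18.7% of all genes, 10.6% as lower), and 22 to week 12, all lower (16.3% and 9.42%). With the 3′ minus 5′ covariate 5 passed to week 4 and 4 to week 12 under anti-miR-33, and 10 to week 12 in controls. The share of all tested genes that passed within an arm with the covariate is not given here. The count to week 4 under anti-miR-33 was 9, 9 and 8 without anti-miR-33 animals 2, 3 and 5. Between week 4 and week 12, limma called 0 in controls (8.49% of all genes, 4.44% as lower), with 3 of the 39 at an unadjusted p under 0.05. Under anti-miR-33 it called 8, all lower (12.5% and 7.19%), and 5, 4 and 3 without animals 2, 5 and 6. The difference between the arms in that interval passed for none of the 39. The changes to week 12 were -0.88 in controls and -0.94 under anti-miR-33 for BGN, -1.57 and -1.16 for ADAMTS5, and -1.07 and -1.27 for PTH1R.

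The genes also varied together between arrays of a group. After the mean of each of the 6 groups was removed, the median Pearson r over the 741 pairs of the 39 genes was 0.27 over 36 arrays, which share animals, extraction and array effects, and 0.01 with all other tested genes. It exceeded 0.5 in 169 pairs and lay under -0.3 in 15. The closest pairs were COL6A3 and VIM (0.86), COL4A1 and SPARC (0.84), COL3A1 and COL6A3 (0.82), ACTA2 and TAGLN (0.81), and COL1A2 and COL6A3 (0.81). FBN1 and EFEMP1 came next (0.80). COL1A1 lay nearest to COL1A2 (0.80) and DPT nearest to DCN (0.76). TGFB1 and TGFBI had negative medians with the other members, at -0.17 and -0.16, and COL14A1, COL6A2 and DES had medians between -0.06 and 0.04.

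The mean of the 39 genes varied with the other basement membrane genes (r = 0.81) and other matrix proteins (0.84), less with cholangiocyte (0.57), quiescent stellate (0.55) and endothelial markers (0.37), and hardly with macrophage (0.11) or hepatocyte markers (0.01). These are descriptions over the 36 arrays.

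**Figure D5:**
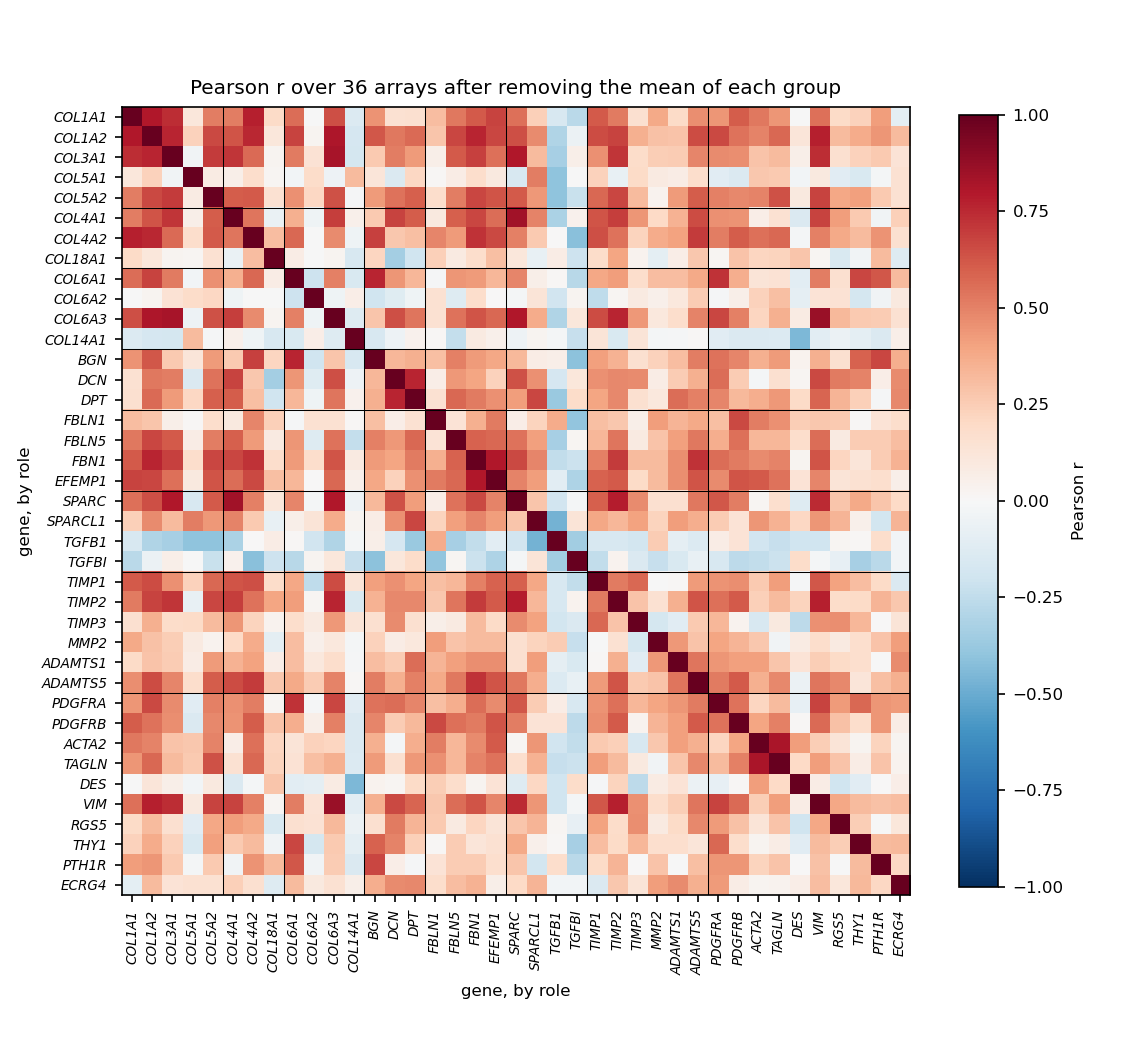
Pearson r between each pair of the 39 tested genes over 36 arrays, after the mean of each group of arm and time was removed; genes are ordered by role on both axes. COL1A1, COL1A2, COL3A1, COL5A2, COL4A1, COL4A2, COL6A1, COL6A3, FBN1, SPARC, TIMP2 and VIM have positive values with each other, COL5A1, COL18A1, COL6A2 and COL14A1 are pale in most cells, and the bands of TGFB1 and TGFBI are mostly below 0.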

How the data were processed

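The deposited values are log2 expression of 54675 probe sets, made by the authors with RMA per the submitters' processing notes; its version is not given in the sources used here. All 36 columns were matched to samples, and 0 were unused. Probe set symbols came from the platform annotation, which can be old: 41097 probe sets had 1 gene, 1801 several and 11777 were unnamed. The 13634 tested genes were fitted on all arrays by limma 3.58.1 under R 4.3.3. The model had a mean for each of 6 groups and treated animals as random blocks (correlation 0.151). Two-sided p-values were adjusted by the Benjamini-Hochberg method in each of 15 comparisons, and genes under 0.05 were called; ± values of changes are standard errors. For changes over time the p-values measure the spread of the change between these animals. Each animal was read on a single array per time, so sampling and array variation are part of that spread. For arm differences at a given time they measure the spread between animals, with the same variation in it. The number of arrays limits the precision. The fit was tested on simulated data.

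The pairing comes from the animal identifiers in the labels. Deviations from group means had a median r of 0.26 over 36 same-animal pairs of arrays (33 over 0.1) and -0.03 over other animals, and 10 of 12 week 4 arrays lay nearest their own animal. The members, other gene lists and tests were chosen with earlier results of these data known. All 42 members are accounted for; per role up to 5 called genes of largest change are given by range, with the 5 of smallest p per arm comparison and up to 4 genes of smallest p of each other list. Alternatives were the block, the filter, the choice of probe set, quantile normalization, a 3′ minus 5′ covariate and leaving out animals or arrays.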

Additional observations from a re-analysis of the deposited data

Results flagged for a closer look

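Single arrays that stood apart within a group of 6 were sought for the 39 tested genes by the gap to the nearest array relative to the range. Of 234 groups tested, 15 (6.41%) held such an array, where about 1 in 20 does by chance. Among the collagens, COL1A2 was 10.13 in control animal 1 at baseline (others 9.17 to 9.52), and COL3A1 was 10.59 in the same sample (9.28 to 9.67) and 9.91 in that animal at week 4 (8.45 to 8.98). In anti-miR-33 animals, COL4A1 was 7.74 in animal 3 at baseline (6.86 to 7.18), COL5A1 was 6.58 in animal 6 at baseline (6.04 to 6.24) and COL6A3 was 7.57 in animal 2 at week 4 (8.19 to 8.52). COL14A1 was 4.45 in control animal 3 at baseline (4.64 to 4.75) and 4.58 in anti-miR-33 animal 2 at baseline (4.64 to 4.67).

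Among the other genes, PDGFRA was 7.35 in control animal 3 at week 4 (7.66 to 7.80), and PDGFRB was 5.94 in anti-miR-33 animal 6 at week 12 (6.29 to 6.45). ACTA2 was 4.93 in control animal 4 at week 4, where the other controls lay between 6.69 and 7.72. TIMP1 was 8.83 in anti-miR-33 animal 3 at baseline (7.87 to 8.13), ADAMTS1 was 4.15 in control animal 3 at week 12 (4.71 to 4.86), THY1 was 5.82 in control animal 5 at baseline (5.41 to 5.53), and ECRG4 was 4.28 in anti-miR-33 animal 3 at week 4 (5.94 to 6.56).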

How the results depend on the processing

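Counts are of the 39 genes at an adjusted p under 0.05 in limma. In the covariate fits pooled over arms, 25.2% of all tested genes passed to week 4 and 5.62% to week 12. For the other alternatives the share of all tested genes is not given. Whether the 39 lost more or fewer calls than other genes cannot be read from those counts. Without a replicate block 6 passed from week 4 to week 12 in both arms, and under anti-miR-33 9 passed to week 4 and 4 from week 4 to week 12. With the animal as a fixed replicate block, 25 of the 26, 25 of the 25 and 10 of the 10 pooled calls were kept, and in controls 1 passed from week 4 to week 12; differences between arms have no value there, since each animal has 1 arm. In controls from week 4 to week 12, 1 also passed with probe sets under a mean of 6 left out or with quantile normalization, and 3 with the mean of all probe sets of a gene. With that mean, 11 passed in controls to week 4, and under anti-miR-33 6 to week 4 and 14 to week 12. With the 3′ minus 5′ covariate 16 passed to week 4 and 15 to week 12 in both arms, 10 in controls to week 12, and under anti-miR-33 5 to week 4 and 4 to week 12.

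Signs turned for COL6A1 to week 4 with the mean of all probe sets (0.079). With probe sets whose names do not end in _s_at or _x_at they turned for COL1A2 (0.043 to week 4, 0.092 to week 12), COL6A1 (0.21 and 0.038), DPT (-0.042 and -0.078), TAGLN (0.038 to week 12), TIMP2 (0.0575 to week 12) and FBLN1 between the arms at week 4 (-0.068). The cause was not tested.

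Leaving out 1 animal, or 1 of 2 single arrays, gave 21 to 27 calls to week 4, 22 to 25 to week 12 and 6 to 10 between them, with 6 without control animal 5. In controls it gave 14 to 18, 12 to 17 and 0 to 1. Under anti-miR-33 it gave 8 to 18, 15 to 24 and 3 to 8. The counts to week 4 there were 9, 9 and 8 without anti-miR-33 animals 2, 3 and 5, and those from week 4 to week 12 were 5, 4 and 3 without animals 2, 5 and 6. Comparisons between arms gave 0 to 0. In all 12 fits without an animal, 19 of 26, 21 of 25 and 4 of 10 pooled calls were kept, the last being COL6A2, BGN, TAGLN and PTH1R. The genes near the filter, such as TGFB1, have low signal over background.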
